A study of Mus musculus with 8 samples.

Results

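YAP and TAZ are the transcriptional coactivators at the end of the Hippo pathway, and this account follows their genes Yap1 and Wwtr1 together with 8 genes long used as readouts of their activity or belonging to the feedback around them: Cyr61, Ctgf, Ankrd1, Axl, Amotl1, Amotl2, Lats2 and Ajuba. The 10 genes were chosen by name, by a rule that used no measured value, and all 10 were present among the 13687 genes measured. Primary mesothelial cells (MCs), the lining cells of the peritoneum, were isolated from the parietal peritoneum of 2 WT and 2 CAV1-/- mice (littermates of the strain B6.Cg-CAV1tm1mls/J; the deletion is carried by all cells of the mouse). From each mouse, 1 culture was kept static and 1 was mechanically stretched for 24 h after reaching confluence, and poly(A) RNA was sequenced from all 8 cultures. The groups are therefore WT static, WT stretched, CAV1-/- static and CAV1-/- stretched, with 2 cultures each, and no age of the animals is given in the sources used here. The study asked how loss of caveolin-1, the scaffold protein of caveolae, alters the response of MCs to stretch, a setting in which YAP/TAZ activity was of interest.

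In the Hippo pathway the kinases MST1/2 (Stk4, Stk3) and LATS1/2 phosphorylate YAP and TAZ, which keeps them in the cytoplasm or leads to their degradation. Unphosphorylated YAP and TAZ enter the nucleus and bind the TEAD factors on DNA, where they activate secreted matricellular proteins such as CTGF and CYR61, the nuclear and sarcomeric protein ANKRD1 and the receptor tyrosine kinase AXL. Among the targets are inhibitors of YAP/TAZ themselves, LATS2 and the angiomotins, which form a negative feedback. Activity of the pathway is set largely by protein modification and localization, which mRNA levels do not report.

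Values are TMM-normalized CPM (reads scaled to a common library total by the TMM method). Log2 fold changes are on the log2(value + 1) scale, with their standard errors (SE) from limma fitted on all 13665 genes that passed the filter on low values, all 10 members among them. This fit does not pair the static and stretched cultures of an animal, so its SE for a stretch comparison includes differences between animals. For 1 gene alone, the smallest two-sided p that an exact permutation test can reach with 2 cultures a group is 0.333. Library totals ranged from 9777738 to 21203938 reads, and every stretched library was deeper than every static one. The lowest read count of any member was 485 (Ankrd1), far above the 3 reads taken as the limit of detection (0.146 to 0.308 TMM-normalized CPM), and this limit covers counting error only. Of 14 mesothelial markers 13 had values (Calb2 had none), and their summed level was 3119 to 4120 in the WT libraries and 925 to 1177 in the CAV1-/- libraries. In each condition 11 of the 13 were lower in CAV1-/- with no overlap of libraries, against 20.8% of all genes without stretch and 15.9% after stretch. For the other 2, Wt1 and Krt19, the genotypes overlapped in both conditions. All 12 leukocyte markers were highest in the static and stretched cultures of CAV1-/- animal 1, with sums of 5052 and 4934 against 81.6 to 481 in the other 6 libraries. The sums of 5 of 7 endothelial markers (Pecam1 and Tie1 had no value) were 22.7 to 71.8, those of 6 smooth muscle markers 2337 to 7506 and those of 6 fibroblast markers 7220 to 17209, the last higher in each culture of an animal 2 (11384 or more) than in any of an animal 1 (8198 or less). Acta2 alone (1932 to 6045) made up most of the smooth muscle sum, and Col1a1 alone (6884 to 15404) most of the fibroblast sum. In bulk RNA, fewer cells of a type and less RNA per cell cannot be told apart.

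TEAD factors recognize the letters GGAATG, which read CATTCC on the opposite strand. Because this is the contact between YAP/TAZ and their targets, the 300-base promoters of the members, taken from RefSeq on GRCm38.p6, were searched for these letters on both strands, from 250 bases before to 50 bases after each annotated start. Of the 10 members 9 had at least 1 promoter entry, and the letters were found in 8 of these 9 genes, against 16.6% of 27025 genes. Counted by promoter, they were in 9 of 11, against 14.7% of 32851 promoters in the same set. The members were named as YAP/TAZ genes, so these counts are not independent of that choice. Among 16 other listed YAP/TAZ targets, described further below, the letters were in 2 of the 10 genes with an entry. The promoter of Amotl1 and a further promoter of Lats2 (chr14:57734369-57734668) lacked the letters, and Ctgf had no entry. The windows below show each match with 10 bases on either side, written 5′ to 3′ on the strand of the gene, with the match in capitals. They are shown because they place the same 6 letters in the coactivator genes, in the secreted target Cyr61, and in Axl, Ankrd1, Amotl2, Lats2 and Ajuba.
Yap1, chr9:8004722-8004747, minus strand: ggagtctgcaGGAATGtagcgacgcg
Wwtr1, chr3:57576031-57576056, minus strand: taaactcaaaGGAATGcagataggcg
Cyr61, chr3:145650073-145650098, minus strand: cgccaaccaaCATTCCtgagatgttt
Axl, chr7:25788951-25788976, minus strand: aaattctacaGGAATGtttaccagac
Ankrd1, chr19:36120039-36120064, minus strand: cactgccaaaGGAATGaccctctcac
Ankrd1, chr19:36119952-36119977, minus strand: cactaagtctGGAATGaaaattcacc
Amotl2, chr9:102717729-102717754, plus strand: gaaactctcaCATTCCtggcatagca
Lats2, chr14:57746104-57746129, minus strand: tgacgcccgtGGAATGccaacaatgt
Ajuba, chr14:54577832-54577857, minus strand: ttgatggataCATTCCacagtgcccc
Ajuba, chr14:54577810-54577835, minus strand: cccctccgcgCATTCCaactgtaaac
A match is a run of letters and not evidence of binding. The matches lay between 233 bases before (Axl) and 4 bases after (Lats2) the start, and the Ankrd1 and Ajuba promoters held a pair each. The letters TGANTCA, recognized by AP-1, were in 0 of the 9 matched genes, against 8.97% of all genes and 7.81% of all promoters, a share at which 0 of 9 is no result about the members. These counts say nothing about the factors outside these windows.

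Amotl2 was lower on stretch in every animal, and it was the 1 member called in any comparison, though only by the tests that compared cultures within an animal or used DESeq2. It encodes an angiomotin-like scaffold of cell junctions that binds YAP and holds it outside the nucleus, and it is itself a target of YAP/TAZ. The gene lies on chr9:102716672-102733418 of GRCm38, plus strand. Its promoter, with 1 match in capitals, is printed in full because it is the member that was called in a comparison below.
Amotl2, chr9:102717554-102717853, plus strand: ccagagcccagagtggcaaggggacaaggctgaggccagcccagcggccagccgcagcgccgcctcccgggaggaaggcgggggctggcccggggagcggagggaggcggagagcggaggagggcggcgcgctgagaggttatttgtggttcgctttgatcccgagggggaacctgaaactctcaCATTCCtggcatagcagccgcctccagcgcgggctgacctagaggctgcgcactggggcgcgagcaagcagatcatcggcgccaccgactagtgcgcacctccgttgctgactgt

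In WT MCs Amotl2 was at 488 and 496 TMM-normalized CPM without stretch and at 292 and 310.5 after stretch. In CAV1-/- MCs it was at 464 and 409 without stretch and at 315 and 279.7 after stretch. All 4 stretched libraries were below all 4 static libraries, a separation in this direction that 1.47% of the genes tested showed. Per animal, the stretched culture had 0.599 and 0.626 times the static level in WT and 0.679 and 0.685 times in CAV1-/- mice. The log2 fold change was -0.71 (SE 0.126) in WT and -0.55 (SE 0.126) in CAV1-/- MCs. Without stretch both CAV1-/- libraries were below both WT libraries (log2 fold change -0.18, SE 0.126, limma adjusted p = 0.827), and after stretch the genotypes overlapped.

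Averaged over both genotypes, the log2 fold change of Amotl2 on stretch was -0.63 (SE 0.0891), a level 35.3% lower, and 1.90% of the genes tested had a more negative one. Limma without a block did not call it (adjusted p = 0.984). When the static and stretched cultures of an animal were compared with each other, through a replicate block for the animal, Amotl2 fell on stretch (limma with the block, adjusted p = 0.0278), where the same fit called 1.47% of all genes. Its adjusted p was 0.0304 by edgeR's quasi-likelihood test with the same block, which called 1.11% of genes, and 4.7e-06 by DESeq2 without it, which called 0.249%. Within WT alone, DESeq2 called it too (adjusted p = 0.0143, with 0.022% of genes called), whereas limma with the block did not (adjusted p = 0.144).

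Leaving out 1 animal in turn, in a fit with the animal and 1 common stretch effect, kept the log2 fold change of Amotl2 between -0.66 and -0.59. In that fit, limma's adjusted p was 0.0129 with all 4 animals, 0.0221 and 0.0333 without WT animal 1 or 2, and 0.0575 and 0.0661 without CAV1-/- animal 1 or 2. The animal whose cultures held the leukocyte markers was CAV1-/- animal 1, and its fold (0.679) was within the range of the other 3. Other measures moved with stretch too: library depth was greater, and the summed mesothelial markers were at 0.757 to 0.944 times and the summed smooth muscle markers at 0.745 to 0.917 times their static level in all 4 animals. The markers in these sums did not all move together. Of 13 mesothelial markers 6 were lower after stretch in all 4 animals and 1, Pdpn, was higher. Of 6 smooth muscle markers 3 were lower and 0 higher in all 4 animals. Over all genes 16.9% were lower and 14.5% higher in this way. The part of library depth and of these markers in the Amotl2 difference was not tested.

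**Figure D1:**
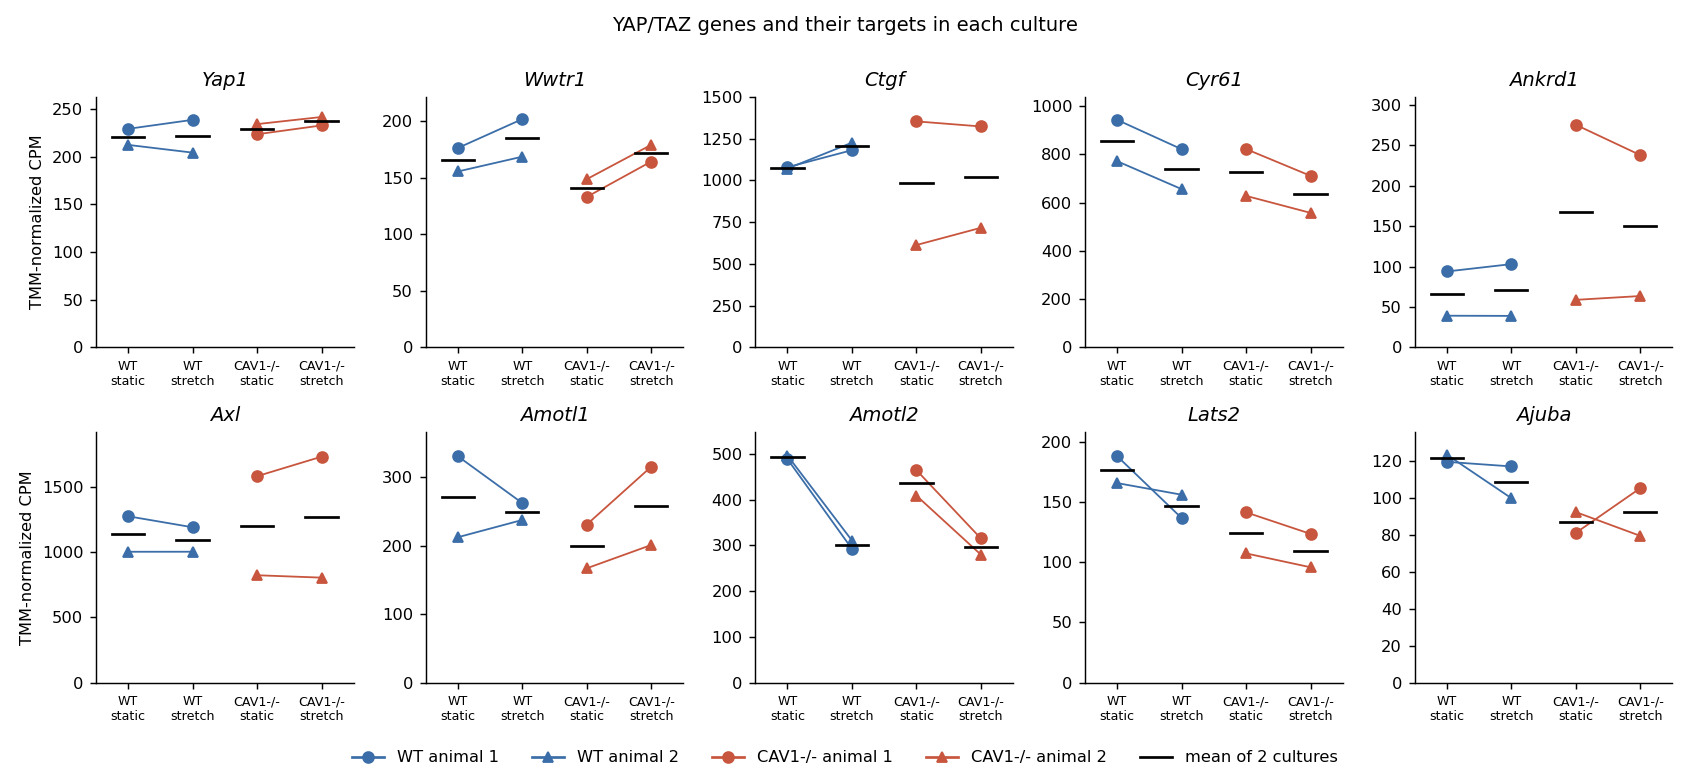
Level of each of the 10 genes (y axes, TMM-normalized CPM, from 0) in the 4 groups (x axes). Points are single cultures, lines join the static and stretched cultures of 1 animal, and black bars are means of 2 cultures. Amotl2 goes down in each of the 4 animals, from 409 to 496 in static to 279.7 to 315 in stretched cultures, whereas Ankrd1, Axl and Ctgf spread mostly between the CAV1-/- animals.

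Of the coactivators, Yap1 differed little between libraries. The gene (chr9:7931999-8004596, minus strand) was at 229 and 212 in WT static, 238 and 204 in WT stretched, 223 and 234 in CAV1-/- static and 233 and 241 in CAV1-/- stretched cultures. Its highest library was 1.18 times its lowest, the narrowest range of the 10 members, and the genotypes overlapped in static and in stretched cultures. Both CAV1-/- animals were higher after stretch (log2 fold change 0.05, SE 0.12, limma adjusted p = 1.00), and the WT animals went opposite ways.

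Wwtr1 (chr3:57455649-57575910, minus strand), the gene of TAZ, was at 176 and 155 in WT static and 202 and 168 in WT stretched cultures, and at 133 and 148 in CAV1-/- static and 164 and 179 in CAV1-/- stretched cultures. It was higher after stretch in 4 of 4 animals, which 14.5% of genes were, with a mean log2 fold change of 0.22 (SE 0.0997). The difference did not pass the test (limma, adjusted p = 0.984, and 0.103 with the replicate block). Without stretch both CAV1-/- libraries were below both WT libraries (log2 fold change -0.23, SE 0.141, limma adjusted p = 0.789), and after stretch the genotypes overlapped. The per-animal increases were larger in both CAV1-/- animals (0.30 and 0.27) than in both WT animals (0.19 and 0.12, log2 scale), and the interaction of 0.13 (SE 0.199) was not called (limma, adjusted p = 1.00).

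The secreted targets CTGF and CYR61 are matricellular proteins of the CCN family that bind integrins and growth factors, and their genes are the most used readouts of YAP/TAZ. Neither was called on stretch. Cyr61 (chr3:145646976-145649981, minus strand) was at 943 and 772 in WT static and 821 and 656 in WT stretched cultures, and at 822 and 628 in CAV1-/- static and 711 and 557 in CAV1-/- stretched cultures. It was lower after stretch in 4 of 4 animals, which 16.9% of genes were, by 0.171 to 0.234 on the log2 scale. The mean log2 fold change of -0.20 (SE 0.16) was not called (limma, adjusted p = 0.991, and 0.133 with the replicate block).

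Ctgf (chr10:24595442-24598683, plus strand) was at 1078 and 1070.1 in WT static and at 1180.2 and 1225 in WT stretched cultures, so that both stretched WT libraries were above both static ones (log2 fold change 0.16, SE 0.432, limma adjusted p = 1.00). In CAV1-/- MCs it was at 1353 and 612 without stretch and 1322 and 716 with stretch. The CAV1-/- animals lay on either side of the WT animals in both conditions, and their static levels stood 2.21-fold apart where those of WT animals stood 1.01-fold apart. The antisense gene Gm15270 overlaps Ctgf and was itself at 0.577 to 1.63 TMM-normalized CPM, and reads of such a pair cannot be told apart without strand, which the library kit named in the labels does not record.

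Ankrd1 (chr19:36111961-36120099, minus strand), which encodes an ankyrin repeat protein first known from heart muscle, varied most. It was at 93.9 and 39.2 in WT static, 103 and 38.9 in WT stretched, 276 and 58.8 in CAV1-/- static and 238 and 63.5 in CAV1-/- stretched cultures. Its highest library was 7.08 times its lowest. The spread followed the animal and not the stretch: animal 1 was above animal 2 by 2.40-fold and 2.65-fold in WT and by 4.69-fold and 3.75-fold in CAV1-/- MCs, whereas stretched over static was 0.864 to 1.10 within the 4 animals. CAV1-/- animal 2 lay between the WT animals in both conditions, so the genotypes overlapped. The 300-base promoter with its pair of matches is shown because this gene has the widest range.
Ankrd1, chr19:36119795-36120094, minus strand: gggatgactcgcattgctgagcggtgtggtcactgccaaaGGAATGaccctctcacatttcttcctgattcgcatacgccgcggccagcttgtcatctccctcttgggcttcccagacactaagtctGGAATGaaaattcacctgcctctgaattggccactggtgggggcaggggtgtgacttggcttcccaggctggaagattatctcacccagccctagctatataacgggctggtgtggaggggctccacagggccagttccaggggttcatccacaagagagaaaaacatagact
The 2 cultures high in Ankrd1 were those high in all 12 leukocyte markers, and they were also the highest for 4 of 6 smooth muscle markers. What part those cells had in the Ankrd1 level was not tested.

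Axl (chr7:25757273-25788705, minus strand), a receptor tyrosine kinase for the ligand GAS6, was at 1275 and 1003 in WT static and 1190.3 and 1003 in WT stretched cultures. In CAV1-/- MCs it was at 1581 and 823 without stretch and 1731 and 805 with stretch. As with Ctgf and Ankrd1, CAV1-/- animal 1 was above all WT libraries, and the CAV1-/- animals were 1.92-fold and 2.15-fold apart. For Axl and Ctgf, CAV1-/- animal 2 was below all WT libraries. Stretched over static was between 0.934 and 1.09 in each of the 4 animals for Axl.

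**Figure D2:**
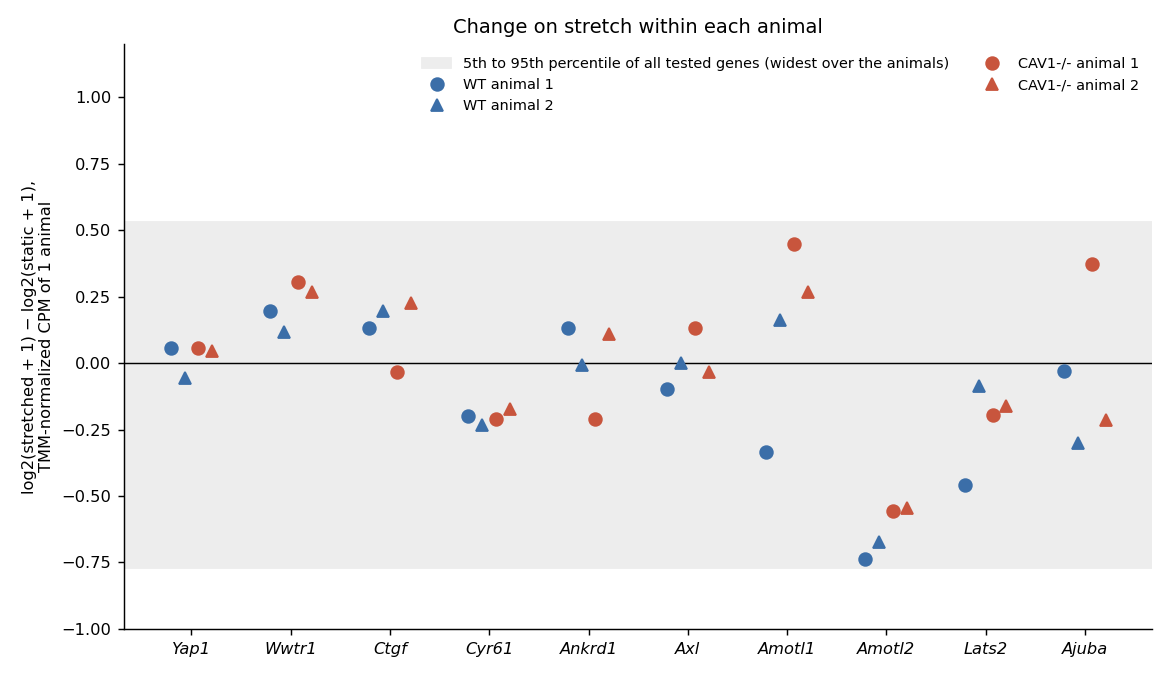
Difference between the stretched and the static culture of each animal (y axis, log2 scale with 1 added to each value) for the 10 genes (x axis). Circles and triangles are animals 1 and 2, blue WT and red CAV1-/-, and the grey band holds the 5th to 95th percentile of all tested genes in the animal where it is widest. The 4 points of Amotl2 lie between -0.74 and -0.54, those of Cyr61 and Lats2 are all below 0 and those of Wwtr1 all above 0.

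Of the other feedback members, Amotl1 (chr9:14541966-14645056, minus strand), the paralog of Amotl2, was at 331 and 213 in WT static, 262 and 238 in WT stretched, 231 and 167 in CAV1-/- static and 316 and 201 in CAV1-/- stretched cultures. After stretch it was higher in both CAV1-/- animals (log2 fold change 0.36, SE 0.309, limma adjusted p = 1.00), and in WT it was lower in animal 1 and higher in animal 2. The per-animal changes of the genotypes did not overlap (interaction 0.44, SE 0.437), and the interaction was not called (limma, adjusted p = 1.00, and 0.947 with the replicate block).

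Lats2 (chr14:57689662-57758388, minus strand), the Hippo kinase that YAP/TAZ induce, was at 188 and 166 in WT static and 137 and 156 in WT stretched cultures. In CAV1-/- MCs it was at 141 and 107 without stretch and at 123 and 95.8 with stretch. It was lower after stretch in 4 of 4 animals, which 16.9% of genes were (mean log2 fold change -0.22, SE 0.137, limma adjusted p = 0.991, and 0.167 with the replicate block). Its CAV1-/- libraries were below the WT libraries both without stretch (-0.52, SE 0.194) and after stretch (-0.42, SE 0.194), which held for 1 of 10 members and for 9.24% of all genes. Neither genotype difference was called (limma, adjusted p = 0.557 and 0.867).

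Ajuba (chr14:54567472-54577558, minus strand), a LIM protein that binds LATS kinases and restrains them, was at 119 and 123 in WT static, 117 and 99.7 in WT stretched, 80.9 and 92.2 in CAV1-/- static and 105 and 79.4 in CAV1-/- stretched cultures. Without stretch both CAV1-/- libraries were below both WT libraries (log2 fold change -0.48, SE 0.169, limma adjusted p = 0.51). After stretch the genotypes overlapped. Both WT animals were lower after stretch (-0.17, SE 0.169, limma adjusted p = 1.00), and the CAV1-/- animals went opposite ways.

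The CAV1-/- libraries with lower Lats2, Ajuba, Wwtr1 and Amotl2 were also those with the lower mesothelial sum, and the part of cell composition in these differences was not tested. Without CAV1-/- animal 1, in which the leukocyte markers were high, the remaining static CAV1-/- library was below both WT libraries for 8 of 10 members (37.1% of all genes) and above them for 1, Yap1 (34.2%). Without CAV1-/- animal 2 these counts were 4 (41.5%) and 3, the latter Ctgf, Ankrd1 and Axl (35.1%). After stretch the counts were 7 lower (32.6%) and 1 higher (32.5%) without animal 1, and 2 lower (35.2%) and 5 higher (33.9%) without animal 2. Ctgf, Axl, Amotl1 and Amotl2 were thus below both WT libraries in 1 CAV1-/- animal and above both in the other after stretch.

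**Figure D3:**
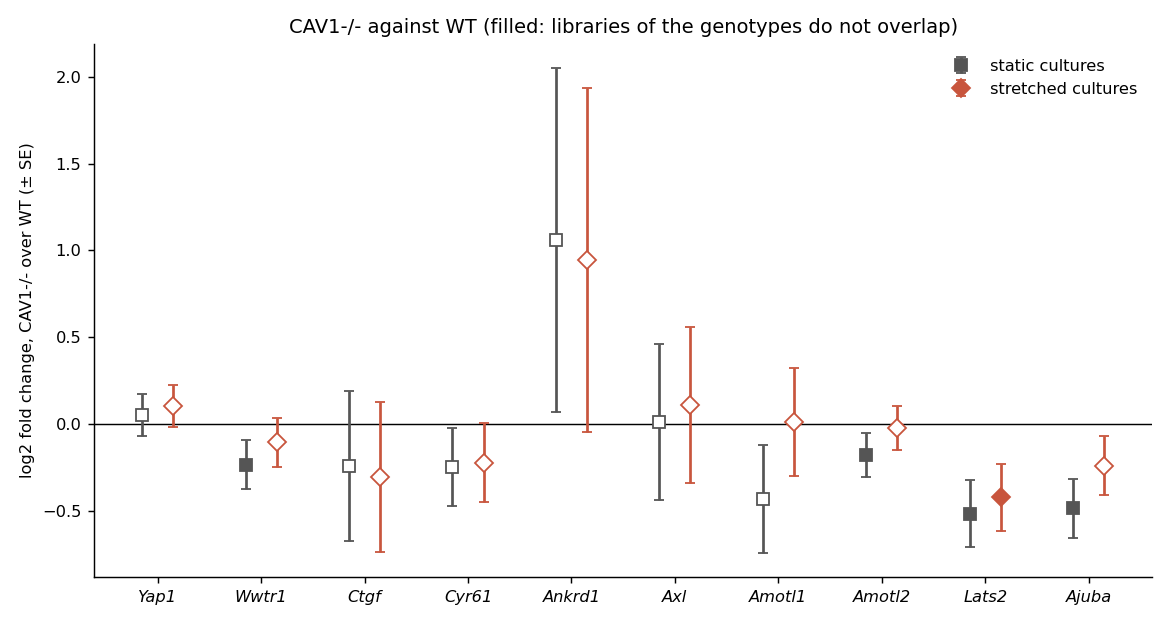
Log2 fold change of CAV1-/- over WT (y axis, log2 of value + 1) for the 10 genes (x axis), in static cultures (grey squares) and stretched cultures (red diamonds), with SE from limma as error bars. Filled symbols mark genes whose 2 CAV1-/- and 2 WT libraries do not overlap: Wwtr1, Amotl2, Lats2 and Ajuba without stretch and Lats2 with stretch, all lower in CAV1-/-.

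Counted over the list, 0 of 10 members were called in WT, in CAV1-/- MCs, or in their mean on stretch (limma without the block, adjusted p under 0.05), where 0.0% of all genes were called. In the genotype comparisons 0 of 10 were called as well, against 0.0732% of all genes without stretch and 0.0585% after stretch, and 0 of 10 for the interaction, against 0.0%. At an unadjusted limma p of at most 0.05, without the block, the members counted were 1 on stretch in WT, 1 in CAV1-/- MCs and 1 in the mean. This was Amotl2 each time, against 2.27%, 2.09% and 4.73% of all genes. With the replicate block these 3 stretch counts were 3, 3 and 4 of 10, against 14.5%, 13.3% and 21.0% of all genes. Of the members so counted, 3, 1 and 3 were lower and the rest higher. Without the block, the genotype comparison without stretch gave 2 (Lats2 and Ajuba), against 8.17%. The genotype comparison after stretch and the interaction gave 0, against 6.26% and 0.483%. A block for the replicate number, which pairs different animals, gave 5 between genotypes without stretch (4 lower), against 16.8%. After stretch it gave 2 (1 lower), against 13.7%. The interaction with the animal as the block gave 1, against 4.25%.

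By direction, both WT animals were higher after stretch for 2 members (Wwtr1 and Ctgf) and lower for 4 (Cyr61, Amotl2, Lats2 and Ajuba), against 28.7% and 33.9% of all genes. Both CAV1-/- animals were higher for 3 (Yap1, Wwtr1 and Amotl1) and lower for 3 (Cyr61, Amotl2 and Lats2), against 30.0% and 30.9%. Without stretch 4 members were lower in CAV1-/- with no overlap of libraries and 0 were higher, against 20.8% and 16.1% of all genes, and after stretch 1 was lower and 0 higher, against 15.9% and 14.6%. The interaction separated 3 members upward (Wwtr1, Amotl1 and Amotl2), against 18.1% of all genes. For Amotl2 this is a smaller decrease in both CAV1-/- animals. The median log2 fold change of the 10 members was 0.0029 for the mean on stretch (-0.0093 over all genes), -0.24 between genotypes without stretch (-0.013 over all genes) and -0.063 after stretch (0.0 over all genes). The genotype comparisons share libraries with the stretch comparisons, so these counts are not separate evidence.

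Compared per length, the 3 targets Ctgf, Cyr61 and Axl were the most abundant members. Divided by the longest annotated transcript, their mean levels over the 8 libraries were 429.5, 366 and 276 TMM-normalized CPM per kb. Amotl2 followed at 86.2, Ankrd1 at 56.4, Yap1 at 43.0, Wwtr1 at 35.3, Ajuba at 30.1, Amotl1 at 27.3 and Lats2 at 26.8. The ranges over libraries overlapped between each pair of neighbours in this order except Axl and Amotl2. With the union of all exons as the length, Yap1 moved from the 6th to the 8th place.

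**Figure D4:**
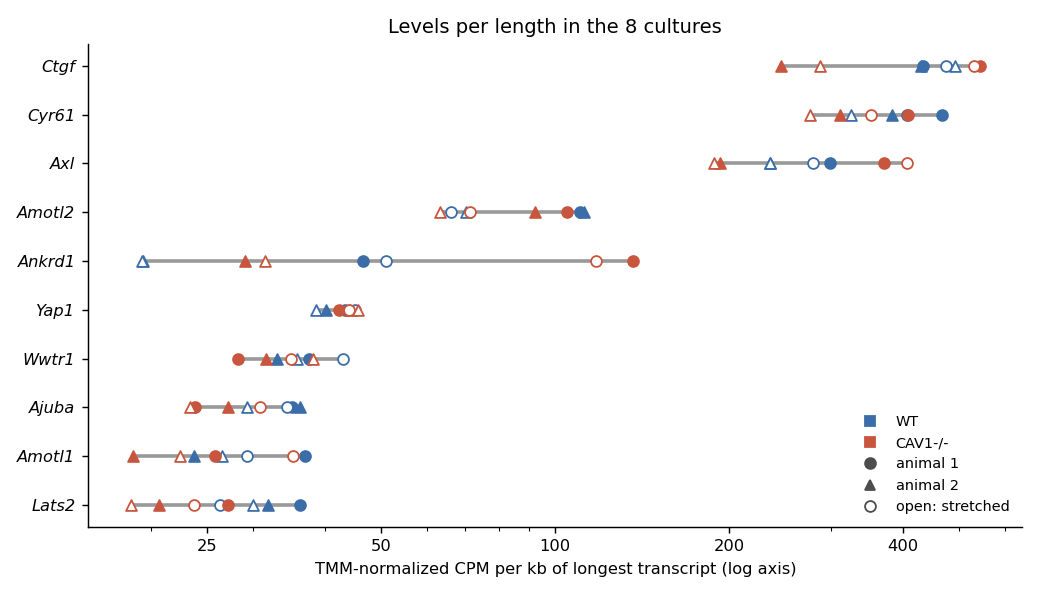
Level per kb of the longest annotated transcript (x axis, TMM-normalized CPM per kb, log axis) for each of the 10 genes, ordered by their mean. Each point is 1 of 8 libraries (blue WT, red CAV1-/-, circles animal 1, triangles animal 2, open symbols stretched), and grey lines span the range. The lowest library of Axl (189) is above the highest of each gene below it, of which Ankrd1 reaches 136.

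Correlations between members ranged from negative to high. Over the 8 libraries (2 from each of 4 animals, so not independent), Pearson's r of log2 values was above 0.7 for 5 of the 45 pairs and below 0 for 13, with a median of 0.34. The same shares were not taken over pairs of other genes, so these counts are a description and not a result about the members. The highest were Ankrd1 with Axl (0.85), Ctgf with Axl (0.83) and Cyr61 with Lats2 (0.81), and the lowest was Yap1 with Lats2 (-0.62). Among 10797 genes with a mean of at least 5, those most like Ctgf were Hmox1, Tnfrsf12a and Renbp (r between 0.98 and 0.99), those most like Cyr61 were Smad9, Prss23os and Mapk13 (0.98 to 0.99), and those most like Ankrd1 were Sgms2, Lyz1 and Myl6 (0.99 each). Lyz1, a lysozyme gene that is not among the leukocyte markers used here, was between 0.323 and 73.7. The genes named as most like a member were picked for the highest r among 10797, over 8 libraries of 4 animals. Their high r follows in part from that choice, so it is a description and not a result.

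Cav1, the targeted gene, was at 764 and 275 in WT static, 570 and 248 in WT stretched, 34.5 and 18.9 in CAV1-/- static and 20.0 and 12.8 in CAV1-/- stretched cultures, so each CAV1-/- library was below each WT library. Its log2 fold change between genotypes was -4.11 without stretch and -4.47 after stretch. In every animal the stretched culture was below the static one, with log2 differences of -0.76 to -0.15, as 16.9% of all genes were. In both genotypes animal 1 had more Cav1 than animal 2.

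Of the DNA-binding partners, Tead1 was the most abundant, at 454 and 375 in WT static, 347 and 332 in WT stretched, 488 and 395 in CAV1-/- static and 475 and 395 in CAV1-/- stretched cultures. Both stretched WT libraries were below both static ones (log2 fold change -0.28, SE 0.174), and after stretch both CAV1-/- libraries were above both WT libraries (0.35, SE 0.174). Neither difference was called (limma, adjusted p = 1.00 and 0.884). With the replicate block the stretch difference in WT was not called either (limma, adjusted p = 0.275). Tead2 was at 32.3 to 82.7, Tead3 at 50.9 to 71.7 and Tead4 at 3.60 to 8.67 over the 8 libraries.

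Among 19 other regulators of the Hippo pathway, 0 were called in any of the 6 comparisons by limma, with or without the block. On stretch 2 of the 19 were higher in all 4 animals and 1, Map4k4, was lower (mean log2 fold change -0.10, SE 0.173, limma adjusted p = 0.999), against 14.5% and 16.9% of all genes. The 2 were Mob1b, a coactivator of LATS kinases (mean log2 fold change 0.30, SE 0.0768, limma adjusted p = 0.984, and 0.0929 with the block), and Lats1 (0.22, SE 0.0745, limma adjusted p = 0.984, and 0.132 with the block). Lats2, the paralog of Lats1, was lower in all 4 animals, and neither of these 2 genes was called on stretch. Without stretch 5 of the 19 were lower in CAV1-/- MCs with no overlap of libraries and 3 were higher, against 20.8% and 16.1% of all genes. Among the 5, Wwc2 and Wwc1 (KIBRA), scaffolds that activate LATS kinases, were lower by 0.84 and 0.83 on the log2 scale (limma, adjusted p = 0.49 and 0.801). After stretch the genotypes overlapped for these 2 genes, and Wwc2 in CAV1-/- animal 1 (241) was above both WT libraries (216 and 221). After stretch 6 of the 19 were higher in CAV1-/- MCs with no overlap and 1 was lower, against 14.6% and 15.9% of all genes. Frmd6, an upstream FERM protein, was higher in CAV1-/- MCs after stretch (0.80, SE 0.221, limma adjusted p = 0.475). It was also higher without stretch, with no overlap of libraries (0.43, SE 0.221, limma adjusted p = 0.731). The median of the 19 was -0.0038 on stretch and -0.07 between genotypes without stretch.

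Among 16 further genes listed as YAP/TAZ targets, limma called 0 in the same comparisons with or without the block, and DESeq2 called 1, Ccdc80, lower in CAV1-/- MCs without stretch (log2 fold change -0.78 in limma, DESeq2 adjusted p = 0.0251), where it called 2.26% of all genes. After stretch 3 of the 16 were higher in all 4 animals and 5 were lower, against 14.5% and 16.9% of all genes. Igfbp3, which encodes a binding protein of insulin-like growth factors, was lower by 1.09 on the log2 scale as a mean (SE 0.626, limma adjusted p = 0.991, and 0.0593 with the block), with values of 475 and 774 against 468 and 319 in WT, and 335 and 1223 against 99.9 and 487 in CAV1-/- MCs. Nuak2, a kinase gene, was higher by 0.73 SE 0.437, limma adjusted p = 0.991, and 0.0598 with the block, at 6.16 to 20.4 in static and 12.9 to 26.6 in stretched cultures. Tgfb2, a TGF-β ligand, was higher in CAV1-/- than in WT MCs after stretch, at 28.0 and 20.5 against 12.5 and 10.3 (log2 fold change 1.02, SE 0.309, limma adjusted p = 0.551). Its static levels overlapped, at 26.6 and 14.3 in CAV1-/- against 16.8 and 16.5 in WT MCs. Between genotypes after stretch, 3 of the 16 were higher in CAV1-/- with no overlap of libraries and 2 were lower, against 14.6% and 15.9% of all genes. The TEAD letters were in the promoters of 2 of the 10 matched genes of this list, 6 of the 16 matched regulators and 1 of the 2 matched TEAD genes, against 16.6% of all genes.

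**Figure D5:**
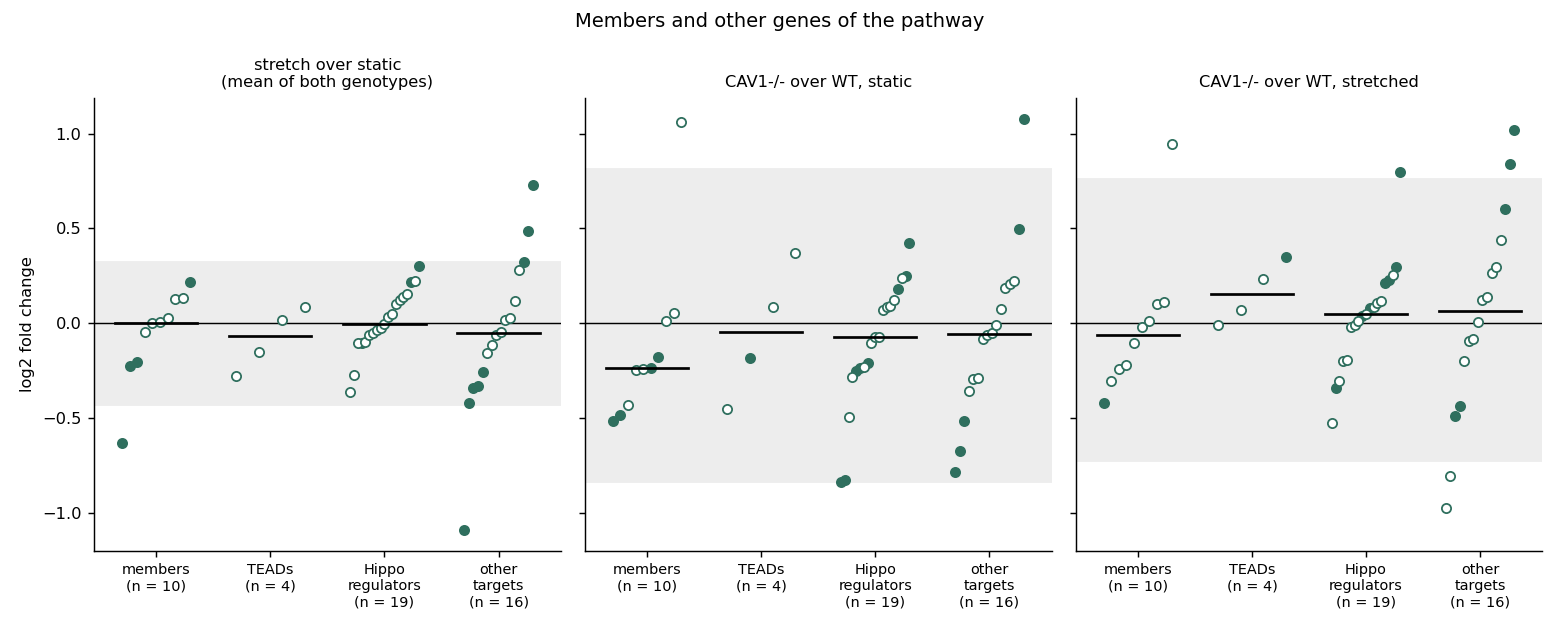
Log2 fold changes (y axis) of the 10 members, 4 TEAD factors, 19 Hippo regulators and 16 other targets in 3 comparisons (panels). Filled points are genes that moved the same way in all 4 animals (stretch) or whose libraries do not overlap (genotype), black bars are medians and the grey band holds the 5th to 95th percentile of all tested genes. The lowest member on stretch is Amotl2 at -0.63, and medians of all 4 lists lie between -0.24 and 0.15.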

How the data were processed

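RNA of MCs from 2 WT and 2 CAV1-/- mice (8 libraries) was sequenced as single reads. The authors trimmed reads with cutadapt, estimated reads per gene with RSEM on GRCm38, and applied edgeR's TMM scaling. The signal deposited by the authors is TMM-normalized CPM of 13687 genes. Each value is a whole multiple of 1 read's value, so reads were recovered (100% whole within 0.01 reads). The labels give 2 animals per genotype, whereas a figure legend of the study states a larger n. Positions are from GENCODE M21, in which 13597 identifiers were found.

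Genes that reached a value of 1 in 2 or more libraries (13665, with 22 left out) were fitted by limma 3.58.1 (R 4.3.3) on log2(value + 1), with 1 mean per group, eBayes with trend and Benjamini-Hochberg adjustment, and called at an adjusted p under 0.05. For the stretch comparisons the labels tie same-numbered static and stretched cultures to 1 animal, whose deviations from group means correlated (r = 0.703 in WT, 0.850 in CAV1-/-), and the fit with the animal as a replicate block was an alternative. Others were edgeR 4.0.16 and DESeq2 1.42.0 on recovered reads, other pseudocounts, filters and scalings, and left-out animals. The tests were run on simulated data with known changes. The spread between animals in those simulated data was set by choice, so they do not show the error rates reached here.

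Of the members, log2 fold changes between genotypes are given where the libraries do not overlap, and on stretch where all animals of the comparison moved the same way. From the other lists at most 3 genes in each direction are named. Promoters are RefSeq's. The members, lists and motifs were chosen with earlier results of these data known, so no choice is independent of them. Fits with 1 common stretch effect and comparisons with 1 CAV1-/- animal left out were added after the values were seen.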

Additional observations from a re-analysis of the deposited data

How the results depend on the processing

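The counts of called members stayed at 0 under most settings. On stretch the mean of both genotypes gave 1 member (Amotl2) with the replicate block, with edgeR and that block, with DESeq2 and at an unadjusted p of at most 0.05. The block with 1 common stretch effect also gave 1, and the fits that left out 1 animal gave 0 to 1 (with that block, 0 without CAV1-/- animal 1 or 2). In WT the count was 1 by DESeq2 and 1 unadjusted, in CAV1-/- MCs 1 unadjusted, and between genotypes without stretch 2 unadjusted. Unadjusted counts in this section are from limma without the block.

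Over all genes, the stretch comparison in WT called 0, 3 by DESeq2 and 310 unadjusted. In CAV1-/- MCs it called 0, 1 with the replicate block, 2 by edgeR with the block, 7 by DESeq2 and 286 unadjusted. The mean of both called 0, 201 with the block, 152 by edgeR with the block, 308 with 1 common stretch effect, 34 by DESeq2 and 647 unadjusted, and 0 to 145 with an animal left out (4 without CAV1-/- animal 1 and 0 without animal 2, with the block). The interaction called 0, and 66 unadjusted.

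Between genotypes without stretch the count was 10, and 6 without the trend, 246 with the replicate number as a block, 2 with the animal as a random effect, 0 with the 4 libraries alone, 2 by edgeR, 229 by edgeR with the block, 309 by DESeq2, 1117 unadjusted and 0 to 0 with an animal left out. After stretch it was 8, and 110 with the block, 0 with the 4 libraries alone, 90 by edgeR with the block, 237 by DESeq2, 856 unadjusted and 0 to 0 with an animal left out. There the number pairs different animals (deviations correlated at 0.522 without and 0.484 with stretch). The log2 fold changes of members followed across settings were those whose libraries did not overlap or whose animals moved the same way. None of them was reversed, which with an animal left out is fixed by that choice. Members whose genotypes overlapped were not followed, and after stretch several lay on opposite sides of WT in the CAV1-/- animals. The causes of the changes in counts were not tested.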
